A study of Mus musculus with 4 samples.

Results

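The Meckel syndrome (MKS) module of the ciliary transition zone was examined as 10 genes chosen by symbol: Tctn1, Tctn2, Tctn3, Tmem67, Tmem107, Tmem216, Tmem231, Mks1, B9d1 and B9d2. All 10 were found among the 18471 genes of the table, and all 10 passed the filter on low counts that left 17300 genes for testing. RNA sequencing was done on retinas of mouse embryos at embryonic day 19, from a series on Foxn3 and primary cilia. One group of 2 libraries came from wild-type embryos and the other group of 2 libraries from homozygous Foxn3KO embryos, which carry the Foxn3em1(IMPC)Bay allele on C57BL/6NJ, a germline loss of exon 3 of Foxn3, which encodes a forkhead protein. Each library came from the retinal RNA of an individually genotyped embryo. Total counts ran from 22543531 to 29360129 per library, and the members had between 419 and 2946 counts each in every library.

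The transition zone is the short stretch at the base of a primary cilium where fibres link the microtubule doublets to the membrane. The MKS module forms a membrane-bound part of this gate: tectonics and transmembrane proteins span or face the membrane, and B9-domain proteins bind it from the cytoplasmic side. It controls which membrane proteins enter the cilium, among them components of Hedgehog signalling, and mutations of its genes cause Meckel and Joubert syndromes. In photoreceptors the connecting cilium that carries the outer segment is an elongated transition zone, but at this stage most photoreceptors have not yet formed outer segments.

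The libraries were checked before the members were compared. Foxn3 itself was counted 2421 and 2712 times in the wild-type-labelled pair, against 4181 and 3219 times in the Foxn3KO-labelled pair. Scaled for depth, this was 97.6 and 99.8 against 144 and 144 CPM (counts scaled to a common library size), a rise of 0.54 on the log2 scale against the direction of the label (adjusted p = 7.8e-08 by edgeR). Gene counts do not resolve exon 3, so they do not check the deletion, and groups are named by their labels throughout. Replicates differed by more than counting noise, with an average chi-square per gene, Xist and Ddx3y left out, of 4.38 within the wild-type pair and 1.85 within the Foxn3KO pair, beside 18.026 to 21.4 across the groups. With those genes of the sex chromosomes counted, the wild-type value was 9.47. Wild-type replicate 1 had 83073 counts of Xist and 0 of Ddx3y, against 9 to 19 and 1780 to 2317 in the other 3 libraries. The sex pattern of that library therefore differs from the rest, and values without it are given below. Retinal markers were abundant in every library: 8 progenitor genes summed to between 2762 and 2943 CPM and 13 photoreceptor precursor genes to between 1839 and 1986 CPM.

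Transcripts of the MKS module were about doubled as a group in the Foxn3KO-labelled pair. Their summed level was 309 and 298 CPM in the wild-type-labelled pair and 600.1 and 602 CPM in the Foxn3KO-labelled pair. Of the 10 members, 9 rose and none fell by edgeR's quasi-likelihood test with p-values adjusted by Benjamini-Hochberg over the 17300 genes (adjusted p under 0.05). Among all tested genes, 21.9% were called, 12.3% higher and 9.66% lower, and 33.5% had an unadjusted p under 0.05. B9d2 was the member that did not pass. All 9 members that rose did so by at least 1.5-fold, against 4.54% of tested genes, and 4 of them (Tctn2, Tctn3, Tmem107 and B9d1) by at least 2-fold, against 2.86%. The median log2 fold change of the members was 0.92, a 1.90-fold rise, and that of all tested genes was -0.0047. In bulk RNA, more transcript per cell and more cells of a type that expresses these genes cannot be told apart.

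**Figure D1:**
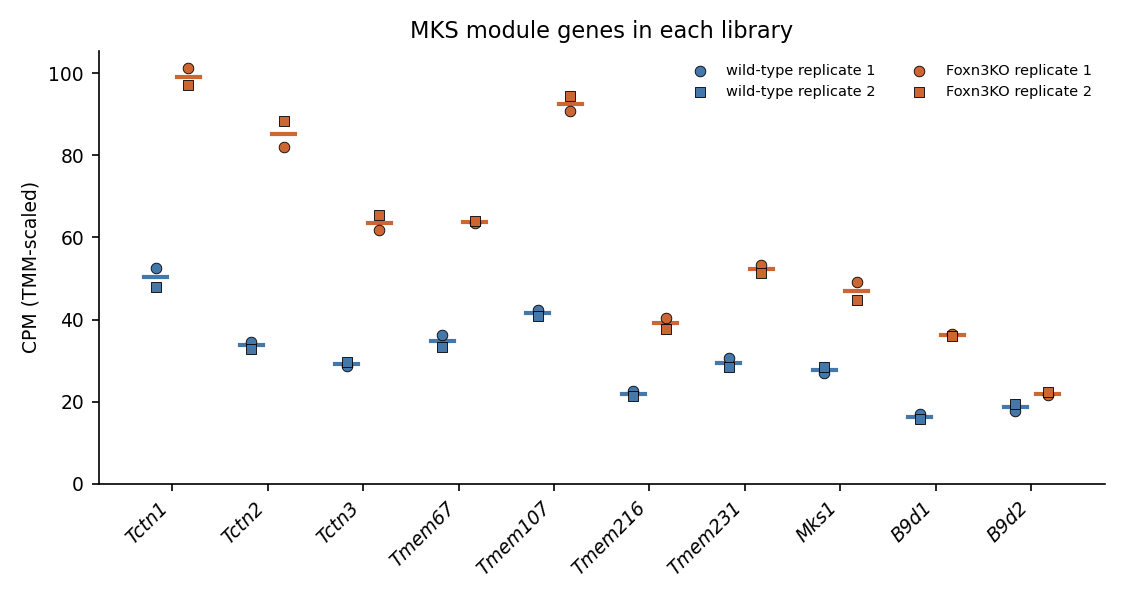
Level of each MKS module gene in CPM, scaled with TMM factors, in the 4 libraries; points are libraries and bars are means of 2. For every gene both Foxn3KO points lie above both wild-type points, and for B9d2 the gap is the narrowest, from 19.5 to 21.5 CPM.

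In all 10 members both Foxn3KO libraries lay above both wild-type libraries in CPM, an arrangement that 29.9% of tested genes showed. The log2 fold changes of the 9 members that rose exceeded those of 94.9% (Mks1) to 97.6% (Tctn2) of tested genes. The value of B9d2 exceeded that of 81.8%.

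Promoter sequences are shown for the 2 members with the largest fitted log2 fold changes, Tctn2 and Tmem107, and the 2 with the smallest, B9d2 and Mks1. The place of Tmem107 above Tctn3 and B9d1 is within their intervals, as is that of Mks1 below Tctn1, Tmem67, Tmem216 and Tmem231. Promoters were examined since the regulatory factor X (RFX) and forkhead families both hold known regulators of cilia genes. The windows are from RefSeq on GRCm38.p6 and run 5′ to 3′ on the strand of the gene, from 250 bases before the start up to the last base before any annotated exon. Capitals mark the letters of the motifs searched. The Tctn2 stretch is chr5:124598499-124598748 on the plus strand, Tmem107 is chr11:69070559-69070805 on the plus strand, B9d2, the first of its windows, is chr7:25680530-25680779 on the plus strand and Mks1 is chr11:87852965-87853214 on the plus strand.
Tctn2: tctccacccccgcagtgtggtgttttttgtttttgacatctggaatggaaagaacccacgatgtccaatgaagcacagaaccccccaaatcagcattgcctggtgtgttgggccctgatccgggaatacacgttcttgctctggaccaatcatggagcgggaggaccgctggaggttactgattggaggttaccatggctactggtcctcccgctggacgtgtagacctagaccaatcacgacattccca
Tmem107: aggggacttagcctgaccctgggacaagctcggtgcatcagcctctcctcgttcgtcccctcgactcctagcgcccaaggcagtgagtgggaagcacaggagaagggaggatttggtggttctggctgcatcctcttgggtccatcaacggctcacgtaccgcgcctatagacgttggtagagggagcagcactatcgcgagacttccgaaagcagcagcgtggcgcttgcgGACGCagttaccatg
B9d2: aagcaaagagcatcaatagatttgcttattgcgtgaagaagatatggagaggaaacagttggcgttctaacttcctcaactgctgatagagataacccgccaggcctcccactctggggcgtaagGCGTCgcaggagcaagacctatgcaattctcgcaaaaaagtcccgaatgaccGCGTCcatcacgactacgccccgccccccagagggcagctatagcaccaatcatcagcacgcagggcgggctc
Mks1: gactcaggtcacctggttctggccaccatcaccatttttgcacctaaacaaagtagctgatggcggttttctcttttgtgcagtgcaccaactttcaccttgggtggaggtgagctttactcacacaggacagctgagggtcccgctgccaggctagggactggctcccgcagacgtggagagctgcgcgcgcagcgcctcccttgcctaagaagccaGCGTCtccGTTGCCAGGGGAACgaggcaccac

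The motifs were searched on both strands of windows from 250 bases before to 50 bases after the start. RefSeq windows were matched for 9 of the 10 members, 11 windows in all, and Tmem67 was not matched. The core of the X-box bound by RFX factors, GTTGCC, occurred in windows of 7 of the 9 members: Tctn1, Tctn2, Tctn3, Tmem231, Mks1, B9d1 and B9d2. Among all 27025 genes of the promoter table, 14.1% had such a window. The match lay after the start in Tctn2 (bases 13 to 18), B9d2 (16 to 21), B9d1 (20 to 25) and Tctn1, so that only 3 members, Mks1, Tctn3 and Tmem231, held one before the start, against 11.8% of all genes. These are letters found in the windows, not sites shown to be bound.

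A stricter X-box search asked for GTTNCC followed by GGNAAC with 0 to 3 bases between them. It overlaps the core motif by construction. Windows of 3 members held this arrangement, against 0.936% of all genes. The letters are shown because they differ in position, and in Tctn3 also in spacing. In Tctn1 they lie 36 to 49 bases after the start, in Mks1 from -24 to -11 and in Tctn3 from -140 to -128. The Tctn3 window holds annotated exons of Entpd1 and Tctn3, and its stretch free of exons begins at -134. The pair of Tctn3 therefore crosses the edge of an exon.
Tctn1: GTTGCCCGGGCAAC
Mks1: GTTGCCAGGGGAAC
Tctn3: GTTGCCAGGTAAC

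The forkhead motif TGTTTAC was in none of the 11 windows of the members and in windows of 4.05% of all genes. The shorter forkhead-like motif GACGC was in windows of 6 of the 9 matched members (Tctn3, Tmem107, Tmem216, Tmem231, Mks1 and B9d2) and of 29.6% of all genes. Over the windows of tested genes alone, the shares were 43.3% for GACGC, 12.7% for GTTGCC, 2.53% for TGTTTAC and 0.806% for the X-box pair. B9d2, with the smallest change, and Tctn2, with the largest, both held GTTGCC just after the start, in B9d2 only in the first of its windows.

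**Figure D2:**
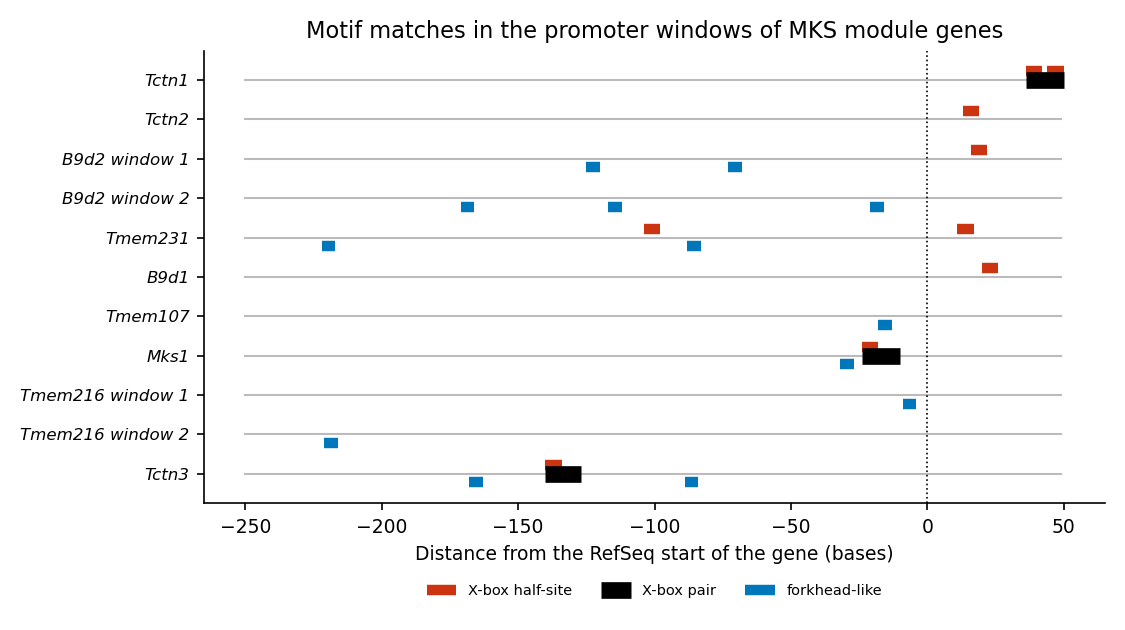
Positions of motif matches (red, X-box core; black, X-box pair; blue, forkhead-like) in the 11 RefSeq promoter windows of 9 members, against distance in bases from the gene start (dotted line). The X-box pair of Mks1 lies just before the start, that of Tctn3 farther upstream and that of Tctn1 after the start.

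The tectonics are related glycoproteins of the secretory pathway, first tied to Hedgehog signalling, that assemble at the transition zone. All 3 rose, and they include the member with the largest change. Tctn2 (ENSMUSG00000118662) had 34.5 and 32.9 CPM in the wild-type-labelled pair and 82.1 and 88.4 CPM in the Foxn3KO-labelled pair. The Foxn3KO libraries were thus 2.53-fold higher, with no overlap. The log2 fold change came to 1.34 (SE 0.059, adjusted p = 8.13e-12 by edgeR). Tctn3 (ENSMUSG00000025008), whose human counterpart is mutated in orofaciodigital syndrome, had 28.7 and 29.8 CPM against 61.7 and 65.5 CPM, and its log2 fold change was 1.12 (SE 0.062, edgeR adjusted p = 1.89e-10). Tctn1 (ENSMUSG00000038593), the founding tectonic, had 52.7 and 48.0 CPM against 101 and 97.1 CPM, and its log2 fold change was 0.98 (SE 0.057, edgeR adjusted p = 4.18e-10). The 95% interval of the log2 fold change of Tctn2 ran from 1.21 to 1.46 and did not overlap that of Tctn1, from 0.86 to 1.10.

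The transmembrane proteins Tmem67, Tmem107, Tmem216 and Tmem231 make up the membrane part of the module. All 4 rose. Tmem107 (ENSMUSG00000020895), a small multi-pass protein that recruits other members of the module, had 42.2 and 40.8 CPM in the wild-type-labelled pair and 90.8 and 94.4 CPM in the Foxn3KO-labelled pair, a 2.23-fold difference. Its log2 fold change was 1.16 (SE 0.054, edgeR adjusted p = 2.02e-11). Tmem67 (ENSMUSG00000049488) encodes meckelin, a receptor-like protein with a cysteine-rich extracellular domain. It had 36.3 and 33.3 CPM against 63.4 and 63.9 CPM, and its log2 fold change was 0.87 (SE 0.061, edgeR adjusted p = 6.29e-09). Tmem231 (ENSMUSG00000031951), which helps to hold the module at the transition zone, had 30.6 and 28.4 CPM against 53.3 and 51.4 CPM. Its log2 fold change was 0.83 (SE 0.065, edgeR adjusted p = 2.47e-08). Tmem216 (ENSMUSG00000024667), a multi-pass protein mutated in Joubert and Meckel syndromes, had 22.6 and 21.4 CPM against 40.5 and 37.7 CPM. Its log2 fold change was also 0.83 (SE 0.072, edgeR adjusted p = 1.03e-07). The 95% intervals of Tmem67, Tmem216 and Tmem231 overlapped one another, while that of Tmem107, from 1.04 to 1.27, lay above all 3.

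Mks1, B9d1 and B9d2 share the B9 domain, a lipid-binding fold related to the C2 domain, and form a complex in which B9d2 contacts the other proteins. Within this complex the changes were unequal. B9d1 (ENSMUSG00000001039) had 16.9 and 15.8 CPM in the wild-type-labelled pair and 36.4 and 35.9 CPM in the Foxn3KO-labelled pair, and its log2 fold change was 1.15 (SE 0.076, edgeR adjusted p = 2.28e-09). Mks1 (ENSMUSG00000034121), the gene first linked to Meckel syndrome, had 26.9 and 28.5 CPM against 49.2 and 44.9 CPM, and its log2 fold change was 0.76 (SE 0.069, edgeR adjusted p = 1.66e-07). B9d2 (ENSMUSG00000063439) had 17.9 and 19.5 CPM against 21.5 and 22.3 CPM. Its log2 fold change was 0.23 (SE 0.084, 95% interval 0.050 to 0.41, edgeR unadjusted p = 0.0149, adjusted p = 0.0627). The adjusted p of B9d2 was under 0.05 without wild-type replicate 2 (0.0181, log2 fold change 0.29) and with the replicate number as a term (0.0449). In the authors' deposited table, the adjusted p of B9d2 was 0.242 and that of the other 9 members was at most 4.55e-13.

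**Figure D3:**
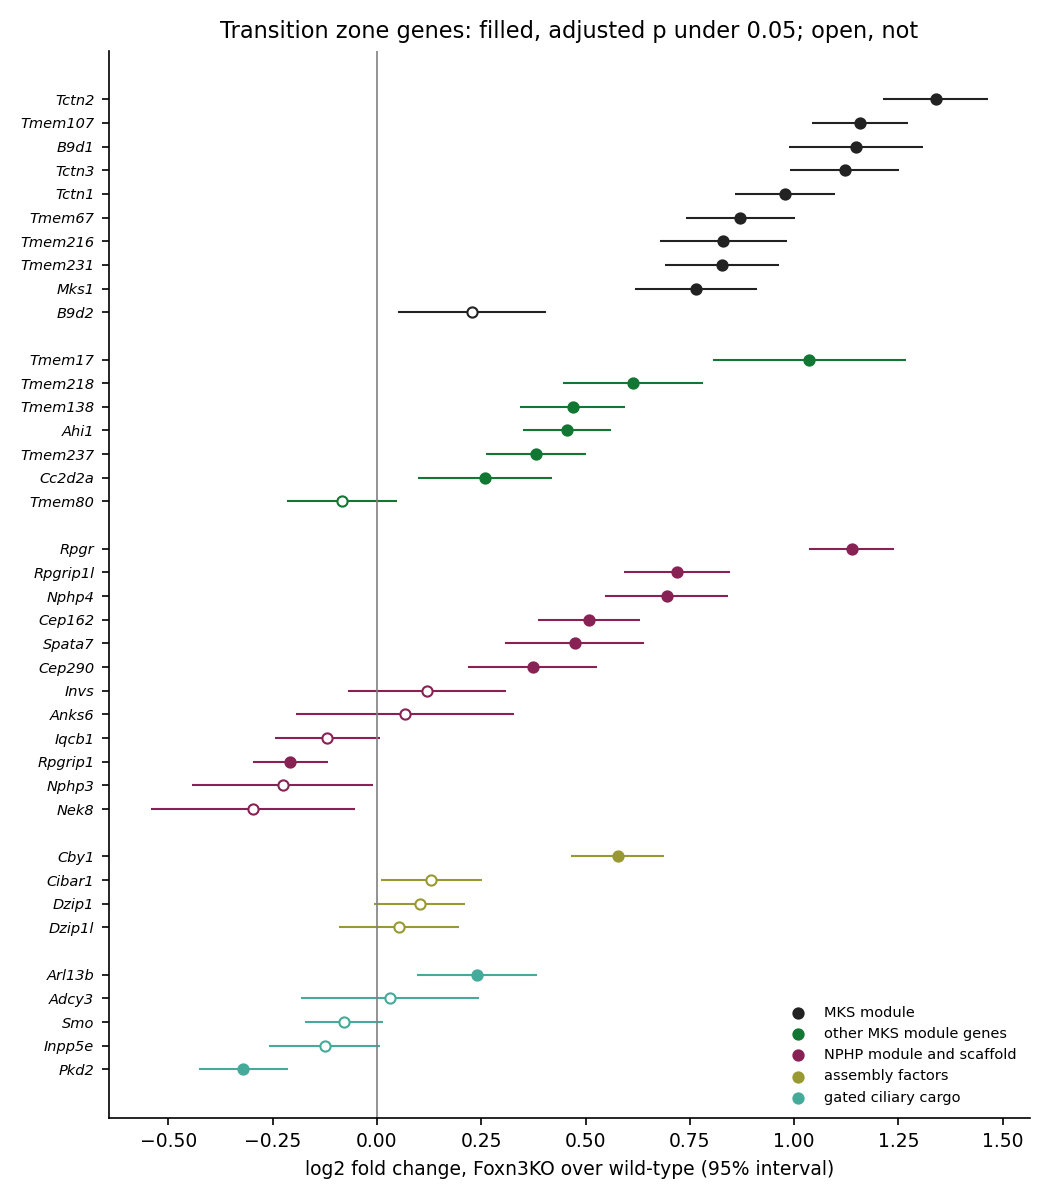
Log2 fold change of each gene, Foxn3KO over wild-type, with its 95% interval from the edgeR fit, in 5 lists of transition zone and related genes; filled points have an adjusted p under 0.05. The interval of B9d2 lies below those of the other 9 MKS module members. The gated cargo genes run from -0.32 (Pkd2) to 0.24 (Arl13b), both filled.

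The 95% interval of B9d2 lay below the intervals of all 9 other members. That of Tctn2 lay above those of 5 members besides B9d2: Tctn1, Tmem67, Tmem216, Tmem231 and Mks1. The intervals of Tctn2, Tctn3, Tmem107 and B9d1 overlapped one another, so no order among these 4 can be read. Intervals compared by overlap are a description, and the differences between members were not tested.

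Levels between genes were compared per gene length, in the authors' FPKM (a fragment count scaled by gene length and library size). Tmem107 was the most abundant member, with 30.7 and 29.7 FPKM in the wild-type-labelled pair and 66.1 and 68.8 FPKM in the Foxn3KO-labelled pair. It took 31.3% to 31.8% of the summed FPKM of the module in the former and 35.4% to 36.4% in the latter. In the wild-type-labelled pair B9d2 came next (12.8 ± 0.83 FPKM, SD, n = 2), followed by B9d1 (10.2 ± 0.49) and Tctn3 (8.89 ± 0.25). Mks1 (6.82 ± 0.27), Tmem216 (6.68 ± 0.26) and Tctn1 (6.04 ± 0.39) came below them, and the libraries of Mks1 and Tmem216 overlapped. Tmem231 (5.47 ± 0.28), Tmem67 (4.48 ± 0.27) and Tctn2 (4.03 ± 0.13) were lowest.

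The order of levels was not the same in both groups. In the Foxn3KO-labelled pair, B9d1 (22.6 ± 0.20 FPKM, SD, n = 2) and Tctn3 (19.4 ± 0.81) stood above B9d2 (15.04 ± 0.39), which had moved from the second to the fourth place. Tctn2 (10.2 ± 0.53) moved from the last place to a level that overlapped that of Tmem231 (9.71 ± 0.24), above Tmem67 (8.20 ± 0.047). Tctn1 (11.9 ± 0.35), Tmem216 (11.9 ± 0.58) and Mks1 (11.6 ± 0.75) could not be ordered, since the libraries of Tctn1 overlapped those of Tmem216, and these overlapped those of Mks1.

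Ratios within a library show the same shift without any scaling between libraries. The ratio of B9d1 to B9d2 FPKM was 0.863 and 0.736 in the wild-type-labelled pair and 1.54 and 1.47 in the Foxn3KO-labelled pair. That of Mks1 to B9d2 was 0.542 and 0.523 against 0.822 and 0.723. Among the tectonics, the ratio of Tctn2 to Tctn1 was 0.653 and 0.684 against 0.809 and 0.908, whereas the ranges of Tctn3 to Tctn1 overlapped (1.38 and 1.57 against 1.55 and 1.71). B9d2 took 12.7% and 14.1% of the summed FPKM of the module in the wild-type-labelled pair and 7.90% and 8.10% in the Foxn3KO-labelled pair. These ratios are given as descriptions, with no test at 2 libraries per group.

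**Figure D4:**
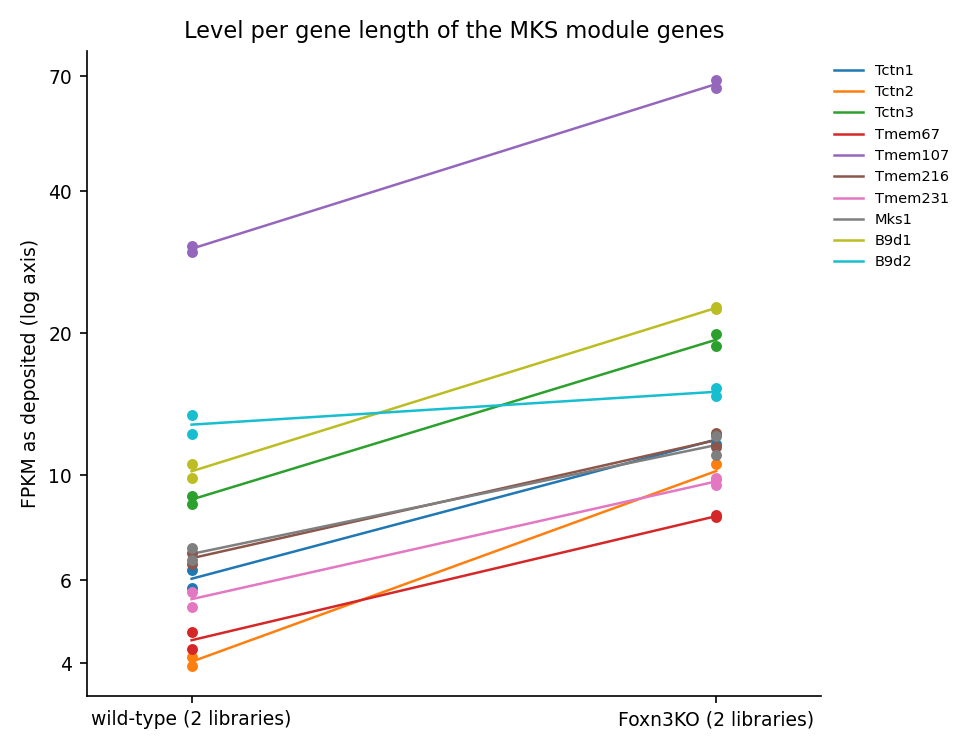
FPKM of each MKS module gene as deposited, on a log axis; points are libraries and lines join the means of the 2 groups. The line of B9d2 is the flattest and is crossed by those of B9d1 and Tctn3.

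The rise of the 9 members did not depend on any single library. Without wild-type replicate 1, the library with the other sex pattern, the same 9 members passed and their log2 fold changes ran from 0.73 (Mks1) to 1.37 (Tctn2), with B9d2 at 0.16. Under total count scaling and RLE size factors all 10 members stayed above 0, and under total count scaling their median was 0.90. The share of all tested genes called higher, beside which these counts stand, was 12.4% with RLE size factors, 11.1% with total count scaling, 11.7% with no filter, 13.2% with at least 10 counts in every library, 8.91% with DESeq2, 12.4% with limma-voom, 12.1% with the earlier edgeR fit and 13.5% with the replicate number as a term. With a library left out it was 13.4% and 15.6% (wild-type replicates 1 and 2) and 8.39% and 8.34% (Foxn3KO replicates 1 and 2).

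Where the members lie in the genome was examined with the GENCODE M21 annotation, used for gene order only. They lie on chromosomes 4 (Tmem67), 5 (Tctn1 and Tctn2), 7 (B9d2), 8 (Tmem231), 11 (Tmem107, Mks1 and B9d1) and 19 (Tctn3 and Tmem216). The nearest tested gene on each side was taken, which includes Tmem138, a transition zone membrane gene also counted below. This gave 20 neighbours. Of these, 5 were higher and 1 lower by edgeR's quasi-likelihood test, beside the 12.3% and 9.66% of all tested genes, and their median log2 fold change was 0.12. The neighbours called higher were Tmem138 beside Tmem216 (0.47), Tspoap1 and Dynll2 beside Mks1 (0.34 and 0.14), Entpd1 beside Tctn3 (0.86, with 27 to 58 counts per library) and Gabarapl2 beside Tmem231 (0.16), and Cpsf7 beside Tmem216 was lower (-0.13). This count was 3 with DESeq2, 3 without Foxn3KO replicate 1 and 2 without Foxn3KO replicate 2. Tmem138 and Tspoap1 were the neighbours called in each of these.

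The neighbours of Tctn2, Tmem107 and B9d1 did not pass the test with all 4 libraries. Beside Tctn2, Gtf2h3 had a log2 fold change of -0.03 (95% interval -0.15 to 0.094) and Atp6v0a2 0.12 (0.0041 to 0.23). Beside Tmem107 it was -0.08 for Borcs6 (-0.29 to 0.12) and -0.03 for Vamp2 (-0.14 to 0.074). Without wild-type replicate 1, Vamp2 was called lower (-0.11, edgeR adjusted p = 0.0112), and the neighbours were 3 higher and 2 lower. Beside B9d1, Epn2 had 0.12 (0.0073 to 0.24), and B9d1os, transcribed away from B9d1, had only 5 to 20 counts per library. The remaining neighbours within 5 kb of a member did not pass and had few counts. Beside B9d2, Tgfb1 had a log2 fold change of -0.097 (95% interval -0.97 to 0.78, 15 to 35 counts per library). It was -0.18 for Gm27042 beside Tctn3 (30 to 38 counts) and 0.29 for Chst5 beside Tmem231 (26 to 32 counts).

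Some members overlap a gene on the opposite strand, and the use of strand in the authors' counting is not given in the sources used here. Tctn1 overlaps Hvcn1, which had 34 to 51 counts against 1304 to 2946 for Tctn1. Tmem67 overlaps Rbm12b2 (791 to 938 counts), whose log2 fold change was 0.07 (95% interval -0.086 to 0.22). Tmem216 overlaps Cpsf7 (4104 to 5380 counts), which changed in the opposite direction. The counts of Tmem67 and Tmem216 are uncertain to that extent.

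**Figure D5:**
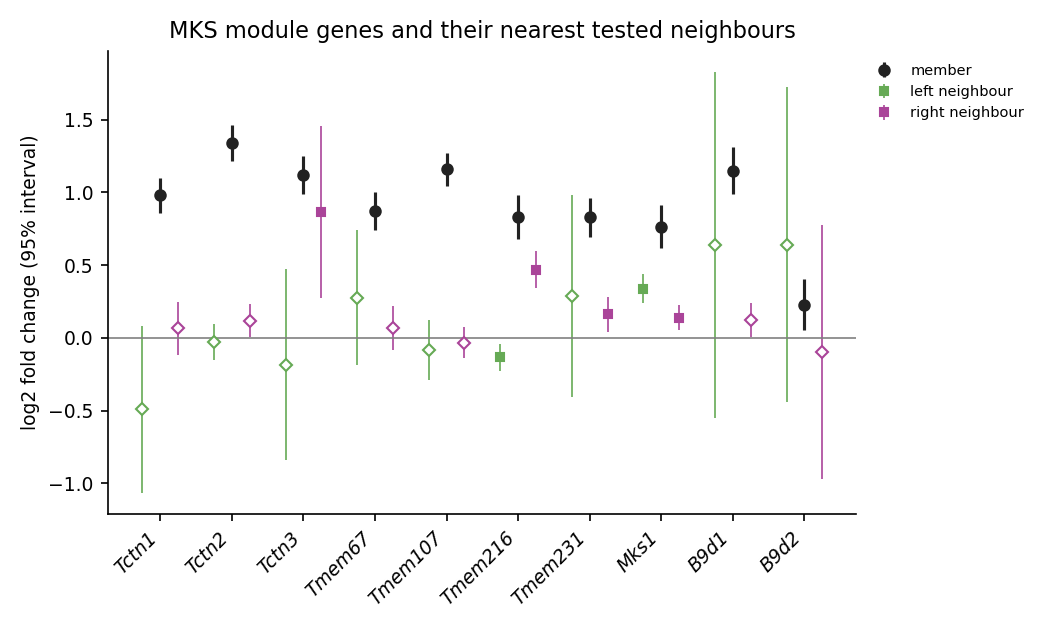
Log2 fold change of each MKS module gene (black) and of its nearest tested neighbour on the left (green) and right (purple) in the annotation, with 95% intervals; filled squares are neighbours with an adjusted p under 0.05 and open diamonds are the others. Apart from B9d2, the point of each member lies above those of its neighbours. The intervals of Entpd1, Chst5 and B9d1os overlap those of Tctn3, Tmem231 and B9d1. Entpd1 beside Tctn3 is the neighbour with the largest called value.

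Genes that work with the module were compared next. The counts called in each list stand beside 12.3% of all tested genes called higher and 9.66% called lower. Of 7 other genes of the MKS module or of the transition zone membrane, 6 rose and none fell, with a median log2 fold change of 0.46. Tmem17, a partner of Tmem231 at the transition zone, had 9.07 and 7.91 CPM in the wild-type-labelled pair and 16.5 and 18.4 CPM in the Foxn3KO-labelled pair (log2 fold change 1.04, edgeR adjusted p = 1.44e-06). The others were Tmem218 (0.61), Tmem138 (0.47), Ahi1, the gene of jouberin (0.46), Tmem237 (0.38) and Cc2d2a, a scaffold that binds the module (0.26). Cc2d2a did not pass with DESeq2 (adjusted p = 0.0741) or without Foxn3KO replicate 1 (log2 fold change 0.13). Tmem80 had a log2 fold change of -0.08 (95% interval -0.21 to 0.049).

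The nephronophthisis (NPHP) module and the scaffold proteins around it form the other part of the transition zone. Of 12 such genes described here, 6 rose, 1 fell and 5 did not pass, beside 12.3% higher and 9.66% lower among all tested genes. The median log2 fold change of the list was 0.25. Rpgr, a regulator of the photoreceptor connecting cilium, had the largest rise (1.14, edgeR adjusted p = 4.32e-12), followed by Rpgrip1l, a scaffold on which the MKS module depends (0.72), and Nphp4, a core protein of the NPHP module (0.69). Rpgrip1, which anchors Rpgr in photoreceptors, fell by 0.21 (edgeR adjusted p = 0.00172), and its adjusted p was 0.0703 without Foxn3KO replicate 2. Without wild-type replicate 2, 3 genes of the list were called lower, with Nek8 (-0.41, edgeR adjusted p = 0.0112) and Iqcb1 (-0.18, 0.021) added. Leaving out wild-type replicate 1 set the median of this list to 0.38, and leaving out wild-type replicate 2 set it to 0.18. The medians of the 3 lists, 0.92, 0.46 and 0.25, are set side by side, and the difference between them was not tested.

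Of 4 assembly factors of the transition zone, Cby1 rose (0.58, edgeR adjusted p = 2.06e-07) and the other 3 did not pass. Without wild-type replicate 1, Cibar1 (0.19) and Dzip1 (0.16) passed too. Of 5 membrane proteins whose entry into the cilium depends on the MKS module, Arl13b rose by 0.24 and Pkd2, the gene of polycystin 2, fell by 0.32 (edgeR adjusted p = 0.0168 and 0.000151). Smo, Adcy3 and Inpp5e did not pass. Arl13b did not pass with DESeq2 (adjusted p = 0.089) or without Foxn3KO replicate 1 (0.239), while Pkd2 did.

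Hedgehog genes, whose output depends on the module in many tissues, included none that rose. Of 11 tested genes, 5 fell and 6 did not pass, beside 12.3% higher and 9.66% lower among all tested genes. Gli1, a transcription factor that is also a target of the pathway, had 161 and 162 CPM in the wild-type-labelled pair and 96.8 and 96.4 CPM in the Foxn3KO-labelled pair. Its log2 fold change was -0.74 (edgeR adjusted p = 7.92e-10). The coreceptors Gas1 and Cdon fell by 0.41 and 0.17, the antagonist Hhip by 0.39 and Gli2 by 0.27. Gli2 and Cdon did not pass without Foxn3KO replicate 1, and Cdon did not pass without Foxn3KO replicate 2. Ptch1, the receptor and a target of the pathway, had a log2 fold change of -0.07 (edgeR adjusted p = 0.265).

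Known regulators of cilia genes moved with the members. Foxj1, a forkhead regulator of motile cilia, had 7.70 and 8.32 CPM in the wild-type-labelled pair and 177 and 175 CPM in the Foxn3KO-labelled pair. Rfx2 had 20.2 and 23.7 against 57.0 and 60.2 CPM, and Rfx3 76.1 and 74.2 against 96.7 and 102 CPM. All 3 rose, with log2 fold changes of 4.45, 1.41 and 0.40 (edgeR adjusted p = 1.6e-18, 1.18e-10 and 1.35e-05). Their part in the rise of the members was not tested.

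Markers of other cells also moved with the groups. Beside their counts stand 12.3% of all tested genes called higher and 9.66% called lower. The multiciliated cell list, of which 7 of 10 genes were in the table, had 6 of 6 tested genes higher and summed to 22.9 and 23.0 CPM in the wild-type-labelled pair and 362 and 361 CPM in the Foxn3KO-labelled pair. Foxj1, described above, is one of these genes and gave 177 and 175 CPM of the latter sums, and Tekt1, a tektin of motile cilia, gave 118 and 118 CPM. The genes of this list that were not read were Mcidas, Gmnc and Ccdc78. Cdc20b, with 7 to 9 counts per library, was not tested. The lens list (11 of 14 genes in the table) had 10 of 11 higher and summed to 8.15 and 77.4 CPM against 317 and 317 CPM, with Crygs at 0 counts in wild-type replicate 1. Of the photoreceptor precursor genes, 8 of 13 rose, and Sag, the gene of arrestin, rose by 0.99, Gngt2 by 0.46 and Tulp1 by 0.37. Pigment epithelium genes summed to 85.7 and 113 CPM against 70.2 and 71.3 CPM, with 3 of 7 lower. The part of these cells in the rise of the members was not tested.

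For the remaining marker lists, called higher and lower were 3 and 1 of 8 retinal progenitor genes, 1 and 1 of 8 ganglion cell genes, 0 and 3 of 8 amacrine and horizontal cell genes, 2 and 2 of 4 tested choroid plexus genes, and 1 and 0 of 6 vessel and mesenchyme genes. By edgeR's adjusted p none of 5 microglia genes and none of 5 blood genes was called. The shares among all tested genes were 12.3% higher and 9.66% lower.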

How the data were processed

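RNA of 4 retinas was measured by sequencing, with libraries made from total RNA with a strand-specific kit and adaptors carrying molecular identifiers, per the labels' protocols. The deposited table holds whole-number counts per gene and library, without normalization. It also holds FPKM values per library, which the authors deposited and which served here only to compare levels between genes. The authors' log2 fold changes and p-values, as deposited, served for 1 comparison, and their mean signal per gene, also deposited by the authors, was not used; standard errors, a score in the authors' table, were not used either. DESeq2 and the mm39 build are named in the submitters' processing notes; the aligner, counter, annotation, and use of strand and of identifiers are not given in the sources used here.

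From the counts, 18471 genes were read after 1 repeated identifier was left out; filterByExpr left 17300. After TMM scaling, a two-sided quasi-likelihood test of genotype was run (edgeR 4.0.16, R 4.3.3, current fit), and p-values were adjusted by Benjamini-Hochberg over the 17300 genes. Standard errors and 95% intervals came from the fold change and its F statistic. CPM used TMM-scaled library sizes. The procedure was tested on simulated data. With 2 libraries per group, p-values reflect only the spread between these embryos, estimated with variance information that the edgeR fit shares across genes. Depth was 22543531 to 29360129 counts per library, and 3 counts corresponded to 0.103 to 0.134 CPM.

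The members and lists were chosen with earlier results of these data known. The text names every member, chosen regulators, and neighbours that were called or lay within 5 kb. Of the further transition zone, cargo and Hedgehog lists it names every called gene where up to 6 were called. Otherwise it names the 3 with the smallest p in each direction. Of the cell marker lists only some called genes are named. Some values of uncalled genes and of neighbours were added after they were seen. Protein sequences were not used here, and 1 gene of the scaffold list is not reported here and was left out of its counts and median. Alternatives were RLE and total count scaling, no filter, a minimum of 10 counts per library, limma-voom (limma 3.58.1), DESeq2 1.42.0, the earlier edgeR fit, a replicate block, and fits without each library in turn, where the lone library of a group is assumed to vary like the other group. Promoters came from RefSeq (GRCm38.p6). Figures were drawn with matplotlib 3.10.9.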

Additional observations from a re-analysis of the deposited data

How the results depend on the processing

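The count of 9 members past the threshold was 9 under every alternative except without wild-type replicate 2 and with the replicate block, where B9d2 passed too and it was 10. Of the 80 member values under alternatives with 4 libraries, 79 kept their direction and their side of the threshold, and of the 40 with a library left out, 39 did; the exceptions are those 2 values of B9d2. Across the fits with a library left out, the number of members called ranged from 9 to 10 and the members' median log2 fold change from 0.863 to 0.993. Total count scaling moved the median to 0.904, as it shifts all genes, whose median it set to -0.0251. The share of all calls that were higher was 55.9%, and 48.2% under total count scaling.

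The count of all tested genes past the threshold was 3795, and 2433 with DESeq2 (892 lower, 1541 higher), and the cause was not tested. With a library left out it ranged from 2323 to 5067, with fewer calls without either Foxn3KO library. The place of the mean level differed between the groups for 6 members by counts and for 8 by FPKM, which includes places between genes whose libraries overlap. In the sample titles, same-numbered libraries share only a number. The correlation of replicate differences between the groups was 0.0053 (17300 genes), and the wild-type difference includes the sex pattern of replicate 1. Whether same-numbered libraries shared a batch was not tested. With the replicate block, 4222 genes and 10 members were called, and B9d2 had an adjusted p of 0.0449. Whether depth limited the call of B9d2 was not tested: with 443 to 627 counts its SE was 0.084, against 0.054 for Tmem107 with 1047 to 2644 counts. B9d1, with 419 to 1060 counts, had an SE of 0.076 and a log2 fold change of 1.15, against 0.23 for B9d2.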
